A study of Rattus norvegicus with 18 samples.

Results

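The 10 genes described here belong to the NRF2 and glutathione antioxidant system: Nfe2l2, Keap1, Slc7a11, Gclc, Gclm, Gsr, Gpx1, Txnrd1, Srxn1 and Hmox1. They were taken by symbol, and all 10 were present among the 13188 genes of the deposited RNA-seq table. Its 18 libraries come from HO15.19, a derivative of the rat fibroblast line Rat1 with both copies of myc disrupted (myc-/-), so endogenous Myc is inactive in every group. The 6 groups had 3 libraries each and were grown in 10% serum. The myc-/- and the myc-/- + MYC groups were untransfected, the latter carrying human MYC. The myc-/- siCtrl and myc-/- + MYC siCtrl groups received a control siRNA, and 2 further groups of MYC-carrying cells received siAHR-2 or siAHR-5, each aimed at Ahr, which encodes the aryl hydrocarbon receptor. The siRNAs were used at 40 nM and the transfected cells were collected after 48 h. MYC was driven by a retroviral vector and not by its own promoter, and the cells are stable lines, so the 3 libraries of a group repeat 1 line. Separate cultures are given by the labels only as replicate numbers, so the p-values measure the spread between these libraries, which may be technical.

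NRF2, the product of Nfe2l2, is a transcription factor that is held in the cytoplasm and sent to degradation by KEAP1. When electrophiles or oxidants modify KEAP1, NRF2 enters the nucleus and, with small MAF partners, binds antioxidant response elements in the genes of glutathione synthesis, the thioredoxin system, quinone reduction and haem breakdown. Glutathione is made from cysteine, which many fibroblasts import as cystine, and is used by peroxidases to remove hydrogen peroxide. AHR and NRF2 share targets such as the quinone reductase Nqo1.

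The deposited values are log2 expression values in 2 differently scaled sets, a smaller set of 6 libraries (myc-/- siCtrl and myc-/- + MYC) and a larger set of 12 (the other 4 groups). The first principal component separated the sets with 74.7% of the variance. Values were therefore compared only within a set. In the smaller set the untransfected myc-/- + MYC cells were set against transfected myc-/- siCtrl cells, and in the larger set the transfected myc-/- + MYC siCtrl cells against untransfected myc-/- cells, so within either set alone the effects of MYC and of transfection cannot be told apart. Transfection sits on opposite sides of the 2 comparisons, and its part in the differences was not tested. Read depth is unknown. Ahr, the target of the siRNAs, was at 13.34, 13.26 and 13.22 in myc-/- + MYC siCtrl, at 11.97, 11.97 and 12.03 with siAHR-2 and at 11.95, 11.76 and 11.94 with siAHR-5. The row of rat Myc did not check the reconstitution: it read 10.90, 10.82 and 10.94 in myc-/- and 8.16, 8.19 and 8.27 in myc-/- + MYC siCtrl, and 9.47, 9.29 and 9.16 in myc-/- siCtrl and 8.05, 8.08 and 8.01 in myc-/- + MYC. Ahr read higher in the libraries labelled with MYC and not given siAHR, at 12.88, 12.97 and 13.03 in myc-/- + MYC against 12.50, 12.44 and 12.39 in myc-/- siCtrl (log2FC 0.52, under 1.5-fold), and at the siCtrl values above against 12.01, 11.67 and 11.95 in myc-/- (log2FC 1.40). How reads of the human transgene and of the disrupted rat gene were counted is not given in the sources used here, and the groups are therefore named below as the libraries labelled so. Fibroblast markers such as Vim (group means of 18.34 to 19.63) and Fn1 (17.70 to 20.41) were high in all 6 groups, but Col1a2 lay between 3.64 and 4.08. Markers of other cells were lower than Vim and Fn1, but the bottom of the scale is unknown and may differ by gene and set. Kdr, for example, was at 5.26 in myc-/- + MYC siCtrl (SD 0.0035) and at 0.94 in myc-/- + MYC (SD 2.4e-05). The marker ranges given here span both sets, so they hold the difference in scaling. Group means ran from 1.24 to 2.40 for Epcam, 3.62 to 4.25 for Cdh1, 2.42 to 7.71 for Krt19 and 6.08 to 8.92 for Krt8 (epithelial), from 0.94 to 5.42 for Kdr, 4.73 to 7.10 for Cdh5 and 6.54 to 7.45 for Pecam1 (endothelial), and from 2.84 to 4.62 for Ptprc, 6.94 to 7.46 for Cd68 and 6.75 to 9.34 for Cd3e (immune). In 1 library, myc-/- replicate 2, genes deviated from the group mean with an SD of 0.112, against 0.0670 and 0.0696 in the other 2 of that group, so values without it are given beside the MYC comparison of the larger set.

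Between cells labelled with and without MYC, Hmox1, Slc7a11 and Gpx1 were lower in both sets and Srxn1 in the smaller set, whereas 0 of the 10 genes were called higher. Gsr and Gclc read higher in every library labelled with MYC of both sets but stayed below the fold cutoff, which Gsr passed in the larger set after quantile normalization. The decline was 3.59-fold for Slc7a11 and 1.98-fold for Hmox1 in the smaller set, and 2.17-fold and 2.44-fold in the larger set. The genes of NRF2 and KEAP1 themselves, both subunits of the glutathione-making ligase and the reductases Gsr and Txnrd1 did not pass the cutoffs in either set. A gene was called when it differed by 1.5-fold or more, on the scale of the log2 fold change (log2FC), and its adjusted p from limma was at most 0.01. In the smaller set, 4 of the 10 genes were called lower and 0 higher, where 14.3% of all genes were called lower and 12.5% higher. The larger set had 3 called lower and 0 called higher, where 14.7% of all genes were called lower and 10.8% higher. The balance of calls over all genes turned with quantile normalization: 1653 higher and 1884 lower became 1799 and 1684 in the smaller set, and 1425 and 1936 became 1796 and 1660 in the larger one. After median centring lower calls stayed in the majority, at 1492 higher and 2046 lower and at 1603 and 1791. The called members stayed lower under both scalings tried. The median log2FC of the 10 genes was -0.29 in the former and -0.16 in the latter, against medians near 0 for all genes. The 2 groups did not overlap for 8 of the 10 genes in the smaller set and for 9 in the other. Such separation was common in the table, at 78.8% and 70.5% of all genes, so little can be read from the 2 counts. Markers moved with the same contrast. Of 9 fibroblast markers, 4 were called lower and 1 higher with MYC in the smaller set, and 5 lower and 0 higher in the larger one. Their summed level, on a log2 scale, ran from 20.82 to 20.83 in myc-/- siCtrl and from 19.90 to 19.99 in myc-/- + MYC, and from 21.95 to 22.18 in myc-/- and from 20.23 to 20.25 in myc-/- + MYC siCtrl. Col1a1 had a log2FC of -5.95 in the larger set, Pdgfrb of -3.08 and Thy1 of -2.20, and Col3a1 was the one called higher in the smaller set, at 1.30. Of 4 epithelial markers in the table, only Krt8 was called, higher in both sets (6.08 to 7.78 and 7.70 to 8.87). Of 3 immune markers, only Cd3e was called, lower in both (9.34 to 7.25 and 7.89 to 6.76), and 0 of 3 endothelial markers were called. In the same order of groups, the summed level ran from 8.18 to 8.25, 8.63 to 8.81, 7.76 to 7.92 and 8.77 to 9.11 for the epithelial markers, and from 9.61 to 9.72, 8.36 to 8.50, 8.47 to 8.56 and 7.93 to 8.11 for the immune ones. The endothelial sums all lay between 7.66 and 7.99, a range that spans both sets. No marker was at 0, but the lowest value a gene can take is unknown. The part of these marker differences in the results for the 10 genes was not tested. In bulk RNA, fewer cells expressing a gene and less of its RNA per cell cannot be told apart.

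**Figure D1:**
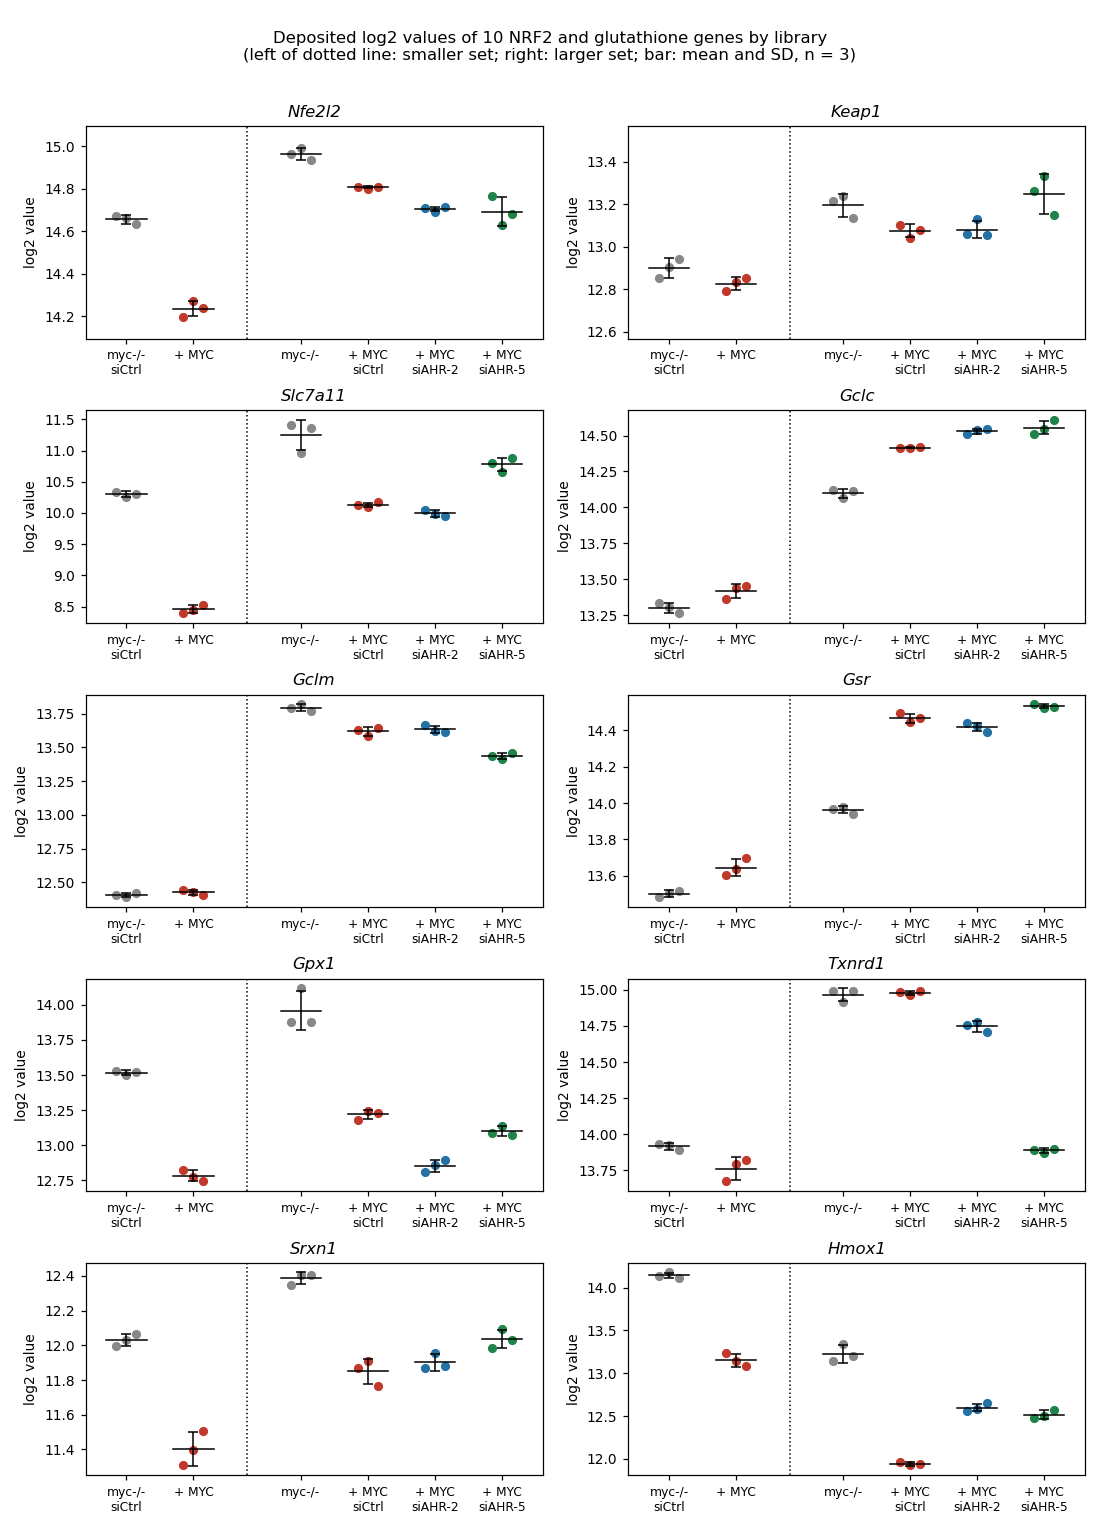
Deposited log2 values (vertical axis) of the 10 genes in each library, with 1 panel per gene, 1 point per library and bars for the mean and SD of 3 libraries. The smaller set lies left of the dotted line and the larger set right of it, and levels across the line are on different scales. Hmox1, Slc7a11, Gpx1 and Srxn1 sit lower in the libraries labelled + MYC on both sides, and Txnrd1 drops from 14.98 to 13.89 with siAHR-5.

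Among the regulators, Nfe2l2, which encodes NRF2, was at 14.67, 14.66 and 14.63 in the libraries labelled myc-/- siCtrl and at 14.20, 14.27 and 14.24 in those labelled myc-/- + MYC. The groups were apart, with a log2FC of -0.42 (SE 0.029, limma adjusted p = 1.31e-07), but the size was below the fold cutoff. The larger set had Nfe2l2 at 14.96, 14.99 and 14.93 in myc-/- and 14.81, 14.80 and 14.81 in myc-/- + MYC siCtrl. That difference was smaller, at -0.16 (SE 0.025, adjusted p = 0.00205), and it turned to 0.0041 after quantile normalization. Keap1, whose product marks NRF2 for degradation, lay between 12.79 and 12.94 in the smaller set, where the 2 groups overlapped (log2FC -0.07, 95% interval -0.15 to 0.00). The larger set had it at 13.22, 13.24 and 13.13 in myc-/- and at 13.10, 13.04 and 13.08 in myc-/- + MYC siCtrl, a log2FC of -0.12 (95% interval -0.21 to -0.03).

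Slc7a11 encodes the light chain of the cystine/glutamate antiporter, which brings in cystine for glutathione synthesis. It had the largest MYC difference of the 10 genes in the smaller set, at 10.34, 10.26 and 10.31 in myc-/- siCtrl and 8.40, 8.44 and 8.53 in the libraries labelled myc-/- + MYC. The log2FC was -1.84 (SE 0.057, limma adjusted p = 1.45e-10), and 2.21% of all genes had a lower one. In the larger set it read 11.41, 10.97 and 11.36 in myc-/- and 10.13, 10.10 and 10.17 in myc-/- + MYC siCtrl, so the lowest myc-/- library still stood above every library labelled with MYC. Here the log2FC was -1.12 (SE 0.12, adjusted p = 3.89e-04). Without the library that stood apart, myc-/- replicate 2, which is also the lowest of its group for Slc7a11, it was -1.26 (adjusted p = 1.8e-05).

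The window before the RefSeq start of Slc7a11 is shown because this gene had the widest difference with MYC in the smaller set. The reads were aligned to rn6, and the windows printed here and below come from RefSeq on another build, GRCr8, in which 8 of the 10 genes had a window. Hmox1 and Gsr had none in the table used. Each printed run holds the 250 bases before the start, 5′ to 3′ on the gene's strand. For Slc7a11 this is chr2:136668265-136668514, minus strand. Capitals mark a match to a relaxed antioxidant response element, TGANNNNGC, beginning 183 bases before the start.
Slc7a11: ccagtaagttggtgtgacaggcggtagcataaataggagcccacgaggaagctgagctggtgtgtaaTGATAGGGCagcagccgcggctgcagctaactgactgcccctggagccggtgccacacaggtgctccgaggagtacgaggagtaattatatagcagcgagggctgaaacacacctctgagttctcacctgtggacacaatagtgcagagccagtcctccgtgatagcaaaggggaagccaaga
Searched on both strands of all 33469 windows of 250 bases before to 50 after a start, the core element TGACNNNGC was found in 12.1%, the MYC E-box CACGTG in 6.42% and the AHR response core GCGTG in 29.7%. The relaxed form contains the core, was chosen after the sequences had been seen and was found in 40.5%. A match is a description of letters and not a binding site. The Slc7a11 window held the relaxed form once and none of the other 3 motifs.

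Gclc and Gclm encode the catalytic and modifier subunits of glutamate-cysteine ligase, the rate-limiting enzyme of glutathione synthesis. Unlike Slc7a11, neither was called. Gclc lay between 13.26 and 13.33 in myc-/- siCtrl and between 13.37 and 13.46 in myc-/- + MYC, a log2FC of 0.12 (95% interval 0.04 to 0.19). Its values in the larger set were 14.12, 14.06 and 14.11 in myc-/- and 14.41, 14.41 and 14.42 in myc-/- + MYC siCtrl, a log2FC of 0.32 (SE 0.025, limma adjusted p = 9.43e-05). The catalytic subunit therefore read higher in every library labelled with MYC of both sets, by less than the fold cutoff. Gclm overlapped between the groups of the smaller set (all 6 libraries between 12.39 and 12.44). In the other set it read 13.79, 13.82 and 13.77 in myc-/- and 13.63, 13.58 and 13.65 in myc-/- + MYC siCtrl, a log2FC of -0.17 (95% interval -0.24 to -0.10). Gclm is printed as an uncalled gene whose window (chr2:213031885-213032134, plus strand) holds the core element TGACNNNGC, here on the opposite strand (capitals) and beginning 172 bases before the start.
Gclm: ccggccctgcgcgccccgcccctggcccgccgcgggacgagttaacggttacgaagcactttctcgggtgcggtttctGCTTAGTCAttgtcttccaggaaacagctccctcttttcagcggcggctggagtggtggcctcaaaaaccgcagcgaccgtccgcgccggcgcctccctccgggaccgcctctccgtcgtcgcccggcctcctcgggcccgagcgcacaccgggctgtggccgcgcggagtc
No E-box or GCGTG was found in that window, and the Gclc window held GCGTG once and none of the other motifs.

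Gsr and Gpx1 recycle and use glutathione, and in the libraries labelled with MYC the first read higher and the second lower. Gsr, glutathione reductase, returns oxidized glutathione to its reduced form. It was at 13.48, 13.51 and 13.52 in myc-/- siCtrl and at 13.60, 13.63 and 13.70 in the libraries labelled myc-/- + MYC (log2FC 0.14, SE 0.032, limma adjusted p = 0.00183). The difference was wider in the larger set, where it read 13.97, 13.98 and 13.94 in myc-/- and 14.49, 14.44 and 14.47 in myc-/- + MYC siCtrl (log2FC 0.51, SE 0.026, adjusted p = 1.43e-05). This was below the fold cutoff as deposited and passed it, at 0.61, after quantile normalization. Gpx1, the abundant selenium-containing glutathione peroxidase, was at 13.53, 13.50 and 13.52 in myc-/- siCtrl and at 12.83, 12.77 and 12.75 in the libraries labelled myc-/- + MYC. It fell by 0.74 on the log2 scale (SE 0.032, adjusted p = 2.03e-09). In the larger set it was at 13.88, 14.12 and 13.88 in myc-/- and at 13.18, 13.25 and 13.23 in myc-/- + MYC siCtrl, and again fell by 0.74 (SE 0.071, adjusted p = 2.15e-04). Without myc-/- replicate 2, the highest library for Gpx1, the value was -0.66.

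Gpx1 was the only one of the 8 genes with a window whose window held the MYC E-box CACGTG. It begins 6 bases after the start, in the transcribed part, and is shown in 30 bases around it (chr8:117905455-117905484, plus strand), with the E-box in capitals. The 250 bases before the start (chr8:117905212-117905461) are shown with a relaxed antioxidant response element in capitals, beginning 222 bases before the start.
Gpx1 around the E-box: gaaagttgaagcCACGTGatctcagcccca
Gpx1 before the start: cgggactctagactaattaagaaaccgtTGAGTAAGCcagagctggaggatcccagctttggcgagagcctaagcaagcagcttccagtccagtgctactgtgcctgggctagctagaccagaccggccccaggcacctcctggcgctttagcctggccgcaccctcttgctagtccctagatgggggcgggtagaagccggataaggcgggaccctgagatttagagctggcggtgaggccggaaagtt

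In the thioredoxin system, Srxn1 was lower with MYC while Txnrd1 was not called. Srxn1 encodes sulfiredoxin, which restores overoxidized peroxiredoxins. It was at 11.998, 12.03 and 12.06 in myc-/- siCtrl and at 11.31, 11.40 and 11.51 in the libraries labelled myc-/- + MYC. It fell by 0.63 on the log2 scale (SE 0.050, limma adjusted p = 3.88e-07), and the value without myc-/- + MYC replicate 1, the lowest library, was -0.58, just inside the fold cutoff and so not called. The larger set gave 12.35, 12.41 and 12.40 in myc-/- and 11.87, 11.91 and 11.77 in myc-/- + MYC siCtrl. The groups were apart there too, but the log2FC of -0.54 (SE 0.047, adjusted p = 1.40e-04) did not reach the fold cutoff. Txnrd1 encodes the cytosolic thioredoxin reductase. It was at 13.93, 13.93 and 13.89 in myc-/- siCtrl and at 13.67, 13.79 and 13.82 in myc-/- + MYC, a log2FC of -0.15 (95% interval -0.24 to -0.07) that turned to 0.039 after quantile normalization. Both groups of the larger set overlapped, at 14.99, 14.92 and 14.99 in myc-/- and at 14.98, 14.96 and 14.99 in myc-/- + MYC siCtrl (log2FC 0.01, 95% interval -0.06 to 0.09).

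Srxn1 and Txnrd1 are shown because one was called with MYC and the other with siAHR-5. The Srxn1 window (chr3:161064562-161064811, plus strand) has in capitals GCGTG on either strand, beginning 152 and 54 bases before the start, and 2 relaxed antioxidant response elements beginning 118 and 17 bases before it.
Srxn1: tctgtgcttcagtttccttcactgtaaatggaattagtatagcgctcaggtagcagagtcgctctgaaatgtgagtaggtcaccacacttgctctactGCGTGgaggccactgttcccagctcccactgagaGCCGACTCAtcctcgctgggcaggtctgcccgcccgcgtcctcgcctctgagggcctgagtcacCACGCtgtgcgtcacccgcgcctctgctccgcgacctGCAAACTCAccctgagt
A further relaxed element spans the start of Srxn1 and is not shown in full. Txnrd1 had 2 windows, of which one held none of the motifs. The other (chr7:22755905-22756154, minus strand) has in capitals the core element on the opposite strand, beginning 78 bases before the start, and GCGTG beginning 31 bases before it.
Txnrd1: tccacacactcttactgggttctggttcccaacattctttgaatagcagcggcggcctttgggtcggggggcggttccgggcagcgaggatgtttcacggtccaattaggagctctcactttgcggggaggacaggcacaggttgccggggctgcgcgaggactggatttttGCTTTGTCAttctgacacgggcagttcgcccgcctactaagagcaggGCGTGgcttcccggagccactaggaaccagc
Another GCGTG in that Txnrd1 window begins 41 bases after the start and is not shown. The window of Keap1 held GCGTG 3 times and a relaxed element. The core element was found in the windows of Nfe2l2 (39 bases after the start), Gclm and Txnrd1, and in 12.1% of all windows. Hmox1 and Gsr had no window, and any link between a motif and a call was not tested.

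Hmox1 encodes haem oxygenase 1, which breaks haem down to biliverdin, iron and carbon monoxide and is among the most inducible NRF2 targets. It was lower in the libraries labelled with MYC in both sets. In the smaller set it was at 14.14, 14.18 and 14.11 in myc-/- siCtrl and at 13.23, 13.14 and 13.09 in myc-/- + MYC, a fall of 0.99 (log2FC -0.99, SE 0.039, limma adjusted p = 1.08e-09). In the larger set it was at 13.14, 13.34 and 13.21 in myc-/- and at 11.97, 11.93 and 11.94 in myc-/- + MYC siCtrl (log2FC -1.29, SE 0.056, adjusted p = 8.08e-06). Without myc-/- replicate 2, the highest library for Hmox1, the value was -1.23, and the same 3 genes of the 10 were called in the larger set. Without that library the uncalled genes stood at -0.14 for Nfe2l2, -0.10 for Keap1, 0.30 for Gclc, -0.16 for Gclm, 0.51 for Gsr, -0.52 for Srxn1 and -0.014 for Txnrd1.

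**Figure D2:**
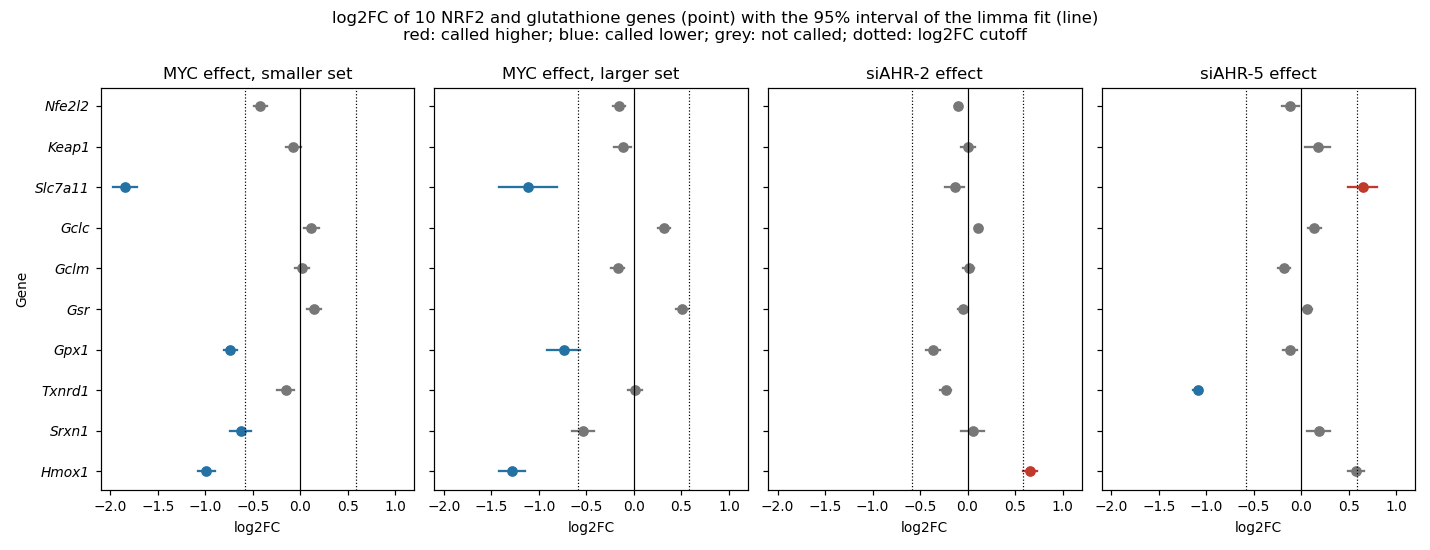
The log2FC (horizontal axis) of each of the 10 genes in 4 comparisons, with the 95% interval of the limma fit as a line. Dotted lines mark a 1.5-fold change in either direction, blue points were called lower, red points called higher and grey points not called. Slc7a11 stands farthest left in the smaller set, at -1.84, and Txnrd1 farthest left with siAHR-5, at -1.09.

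The difference between the MYC effects of the 2 sets was tested in one fit of 12 libraries, as the effect in the larger set minus that in the smaller set. The sets are scaled differently and the transfection label sits on opposite sides, so this difference holds both. Slc7a11 was the single gene of the 10 called, 0.73 higher (SE 0.13, limma adjusted p = 2.26e-04), which is a smaller fall in the larger set. Without myc-/- replicate 2 the value was 0.59, still called but barely past the fold cutoff. Of all genes, 6.79% were called higher and 9.67% lower. The next in size were Gsr at 0.36 (SE 0.049, adjusted p = 1.62e-05), Hmox1 at -0.30 (SE 0.072, adjusted p = 0.00279) and Nfe2l2 at 0.26 (SE 0.046, adjusted p = 1.98e-04), all below the fold cutoff. For Gpx1 the difference had a 95% interval of -0.17 to 0.16, and for Srxn1 of -0.07 to 0.25. Scaling bore on this comparison, since 896 genes were called higher and 1275 lower as deposited, and 1148 and 1036 after centring each library on its median.

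With AHR knockdown, 1 of the 10 genes passed the cutoffs with siAHR-2 and 2 with siAHR-5. With siAHR-2, Hmox1 rose 1.58-fold, a call lost with the replicate number as a block. It was 1.49-fold higher with siAHR-5, just under the cutoff, and the direct comparison of the 2 siRNAs did not call it (adjusted p = 0.135). With siAHR-5, Txnrd1 fell 2.13-fold and Slc7a11 rose 1.57-fold. Both were compared with the same 3 myc-/- + MYC siCtrl libraries, which also serve as the MYC group of the larger set, so these 3 comparisons are not independent of each other. For siAHR-2, 1 of the 10 genes was called higher and 0 lower, where 0.159% of all genes were called higher and 0.311% lower. For 7 of the 10 genes the groups did not overlap, against 43.3% of all genes. For siAHR-5, 1 was called higher and 1 lower, where 1.47% of all genes were called higher and 0.849% lower. All 10 genes had groups without overlap, against 50.5% of all genes. The split of calls over all genes depended on the scaling: siAHR-5 called 194 genes higher and 112 lower as deposited, 127 and 126 after quantile normalization, and 140 and 165 after median centring. The siAHR-2 split was 21 higher and 41 lower, and 15 and 53 after median centring. The median log2FC of the 10 genes was -0.02 with siAHR-2 and 0.10 with siAHR-5. Of the markers, 0 were called with siAHR-2. With siAHR-5, 1 of the 9 fibroblast markers was called higher, Thy1 at 0.75, and Pdgfrb stood at 0.55. Vim stood at -0.36 with siAHR-2 and -0.48 with siAHR-5 (limma adjusted p = 5.64e-04 and 3.62e-04), below the fold cutoff, while between the siRNAs Thy1 (0.67) and Pdgfrb (0.64) were both called higher with siAHR-5. The summed fibroblast level ran from 20.23 to 20.25 in the controls, from 19.99 to 20.03 with siAHR-2 and from 19.95 to 19.97 with siAHR-5, so both knockdown groups lay below the controls, and 0 epithelial, endothelial or immune markers were called. The part of the markers in the knockdown results was not tested.

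Hmox1 was at 11.97, 11.93 and 11.94 in myc-/- + MYC siCtrl, at 12.57, 12.59 and 12.65 with siAHR-2 and at 12.48, 12.50 and 12.58 with siAHR-5. Every knockdown library stood above every control library. With siAHR-2 the log2FC was 0.66 (SE 0.028, limma adjusted p = 3.73e-04), and 99.9% of all genes had a lower one. With the replicate number as a block the adjusted p was 0.0126, and the call was lost. With siAHR-5 the log2FC was 0.57 (SE 0.033, adjusted p = 3.62e-04), just short of the fold cutoff, and it passed at 0.60 without siAHR-5 replicate 1 and at 0.59 without myc-/- + MYC siCtrl replicate 1. Between the 2 siRNAs Hmox1 differed by -0.08 (siAHR-5 minus siAHR-2, 95% interval -0.17 to 0.01), with overlapping groups.

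Txnrd1 was at 14.98, 14.96 and 14.99 in myc-/- + MYC siCtrl, at 14.76, 14.78 and 14.71 with siAHR-2 and at 13.89, 13.87 and 13.90 with siAHR-5. The 3 groups did not overlap. The log2FC was -1.09 with siAHR-5 (SE 0.017, limma adjusted p = 2.73e-05), and 10 of the 13188 genes had a lower one, Ahr among them at -1.39 (adjusted p = 2.16e-04). With siAHR-2, for which Ahr was at -1.29 (adjusted p = 2.37e-04), Txnrd1 differed by -0.23 (SE 0.022, adjusted p = 0.00183), below the fold cutoff. Set directly against each other, siAHR-5 was 0.86 below siAHR-2 (log2FC -0.86, SE 0.023, adjusted p = 5.21e-05). Ahr itself differed between the 2 siRNAs by -0.11 (95% interval -0.25 to 0.04). Whether either siRNA acts on transcripts other than Ahr was not tested.

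Slc7a11 was at 10.13, 10.10 and 10.17 in myc-/- + MYC siCtrl, at 10.05, 9.98 and 9.95 with siAHR-2 and at 10.79, 10.66 and 10.87 with siAHR-5. The siAHR-5 libraries stood above all controls and the siAHR-2 libraries below them. The log2FC was 0.65 with siAHR-5 (SE 0.062, limma adjusted p = 0.00103) and -0.14 with siAHR-2 (SE 0.041, adjusted p = 0.0583). After quantile normalization the siAHR-5 value was 0.56, inside the fold cutoff, and the call was lost. The direct difference of 0.78 (siAHR-5 minus siAHR-2, SE 0.064, adjusted p = 5.63e-04) was called. In this direct comparison 1 of the 10 genes, Slc7a11, was called higher and 1, Txnrd1, lower, where 1.33% of all genes were called higher and 0.849% lower.

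The other 7 genes stayed below the fold cutoff with both siRNAs. Gpx1 was at 13.18, 13.25 and 13.23 in the controls, at 12.81, 12.86 and 12.90 with siAHR-2 (log2FC -0.37, SE 0.030, limma adjusted p = 0.00128) and at 13.09, 13.14 and 13.08 with siAHR-5 (log2FC -0.12, SE 0.028, adjusted p = 0.0219). It was 0.25 higher with siAHR-5 than with siAHR-2 (95% interval 0.17 to 0.32). Gclm was at 13.63, 13.58 and 13.65 in the controls and at 13.44, 13.42 and 13.46 with siAHR-5 (log2FC -0.18, adjusted p = 0.00297), and with siAHR-2 it overlapped the controls (log2FC 0.01, 95% interval -0.05 to 0.07). Nfe2l2 was -0.10 below the controls with siAHR-2 (95% interval -0.13 to -0.07) and -0.12 with siAHR-5 (95% interval -0.21 to -0.03). Keap1 overlapped the controls with siAHR-2 (95% interval -0.07 to 0.08) and differed by 0.17 with siAHR-5 (95% interval 0.05 to 0.30). Gclc differed by 0.11 and 0.14 with siAHR-2 and siAHR-5, Gsr by -0.05 and 0.06, and Srxn1 by 0.05 and 0.19.

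In the larger set only myc-/- was untransfected, so in the place of that group MYC and transfection cannot be told apart. With this limit, the order of the group means can be read for each gene that was called. For Hmox1 it ran from myc-/- (13.23 ± 0.10, SD, n = 3) through siAHR-2 (12.60 ± 0.042) and siAHR-5 (12.52 ± 0.052), which overlapped, to siCtrl (11.94 ± 0.022). Slc7a11 was highest in myc-/- (11.25 ± 0.24), followed by siAHR-5 (10.78 ± 0.11), siCtrl (10.13 ± 0.036) and siAHR-2 (9.99 ± 0.051), with no overlap between neighbours. Gpx1 was also highest in myc-/- (13.96 ± 0.14), followed by siCtrl (13.22 ± 0.034), siAHR-5 (13.10 ± 0.033) and siAHR-2 (12.85 ± 0.044), again with no overlap between neighbours. For Txnrd1, siCtrl (14.98 ± 0.015) and myc-/- (14.97 ± 0.044) overlapped at the top, siAHR-2 (14.75 ± 0.037) lay below them and siAHR-5 (13.89 ± 0.016) lowest.

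The 10 genes did not share one pattern across the 12 libraries. Of their 45 pairs, 19 had a Pearson correlation above 0.5 and 15 one below -0.5. The highest was 0.94, between Gclc and Gsr, both read higher with MYC, and the lowest -0.96, between Nfe2l2 and Gclc. Hmox1 and Srxn1 were at 0.88, and Nfe2l2 and Gpx1 at 0.91. In the smaller set 22 pairs were above 0.5 and 18 below -0.5. Such counts were not taken over all gene pairs, so little can be read from them. The values of the larger set describe 12 libraries in 4 groups, so they follow the group means. Of the 12802 genes averaging a log2 value of 1 or more, the 3 most like Nfe2l2 were Acp2 (0.984), Uqcrc2 (0.982) and Cyp51 (0.979). For Slc7a11 they were Trak1 (0.993), Dhrs9 (0.987) and Ccnd2 (0.987), and for Hmox1 Nrbp1 (0.979), Phc1 (0.976) and Phc2 (0.974). None of the 9 is one of the 10 genes, from which little can be read with so many genes compared.

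The wider pathway was described with 4 lists of 72 other genes, of which 70 were in the table. With MYC, 8 were called higher and 20 lower in the smaller set. The larger set gave 7 higher and 21 lower. After quantile normalization the counts were 11 and 17 in the smaller set and 10 and 20 in the larger one, and after median centring 8 and 25, and 7 and 20. Of all genes, 12.5% and 10.8% were called higher and 14.3% and 14.7% lower. The median log2FC was -0.12 and -0.20, and -0.02 and -0.10 after quantile normalization. Among 9 genes listed as regulators of NRF2 or as its relatives, 4 were called lower in the smaller set and 2 in the larger one, with 0 higher. After median centring 5 were called lower in the smaller set. Bach1, a repressor at antioxidant response elements (-0.87 and -0.81), and Sqstm1, which encodes the KEAP1-binding autophagy receptor p62 (-0.86 and -1.53), were called in both sets. The small MAF gene Maff (-0.92) and the KEAP1 ligase subunit Cul3 (-0.62) were called in the smaller set, and Cul3 lost its call after quantile normalization (-0.47). The other small MAF genes, Mafg (0.31 and 0.14) and Mafk (0.05 and 0.16), were not called. Among 16 NRF2 target enzymes, transporters and ferritins, the smaller set had 1 higher and 4 lower, and the larger one 2 and 5. The 22 genes of glutathione synthesis, transfer and breakdown had 5 higher and 6 lower, and 3 and 7. The 23 peroxidases, thioredoxins, glutaredoxins and dismutases had 2 higher and 6 lower, and 2 and 7. After quantile normalization this list had 4 higher and 4 lower in the smaller set and 3 and 7 in the larger one, so its excess of lower calls in the smaller set was not kept.

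**Figure D3:**
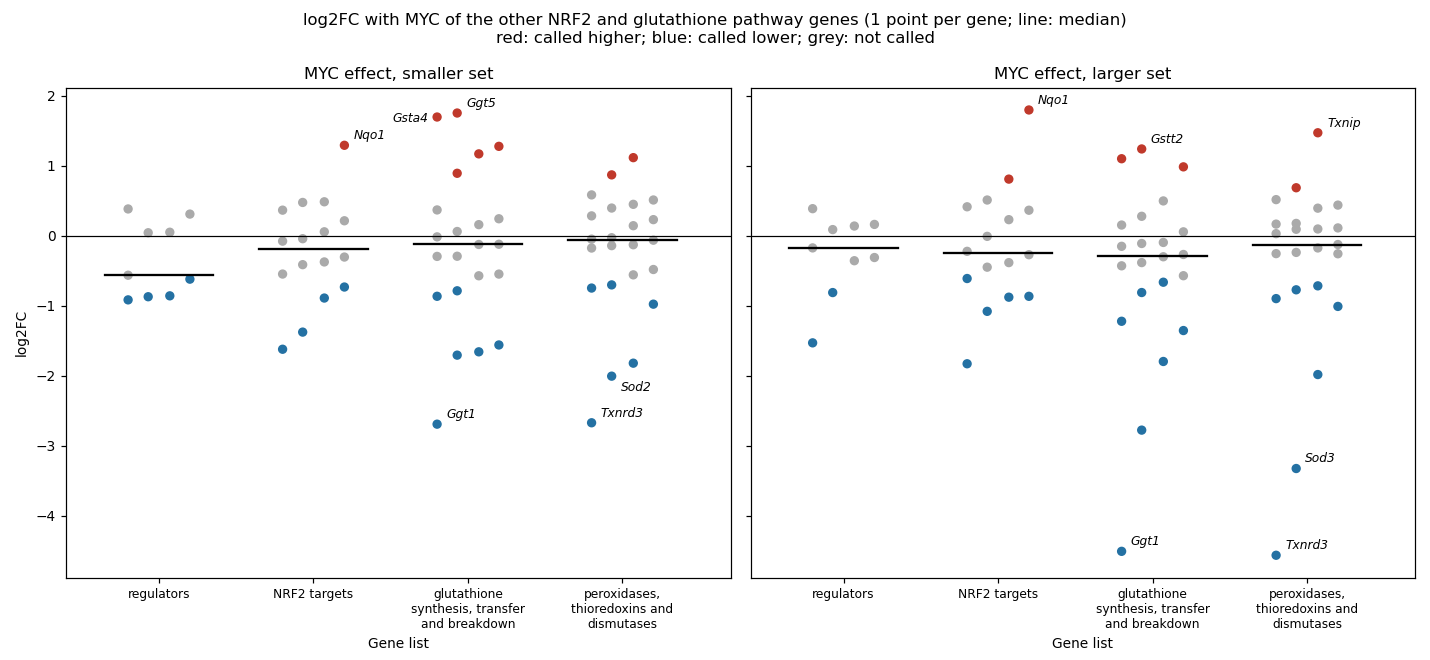
The log2FC (vertical axis) of the other pathway genes in the 2 MYC comparisons, by gene list (horizontal axis), with 1 point per gene and a line at the list's median. Red points were called higher, blue points called lower and grey points not called. All 4 medians lie below 0 in both sets as deposited, but after quantile normalization that of the peroxidases and thioredoxins was 0.039 and 0.069 and that of the regulators 0.0030 in the larger set, and Nqo1 lies above 1 in both.

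Nqo1, the quinone reductase, rose with MYC in both sets, by a log2FC of 1.29 (SE 0.073, limma adjusted p = 2.03e-08) in the smaller set and by a larger one in the other (1.80, SE 0.040, adjusted p = 6.85e-07). This is opposite to Hmox1. Ggt1, a γ-glutamyltransferase that cleaves extracellular glutathione, fell by 2.69 and 4.51 on the log2 scale. Txnrd3, the thioredoxin glutathione reductase, fell by 2.67 and 4.56. The other genes with the 3 largest rises or falls in the smaller set were Ggt5 at 1.75, the glutathione transferase Gsta4 at 1.70, and the mitochondrial superoxide dismutase Sod2 at -2.01. For the larger set they were the thioredoxin inhibitor Txnip at 1.47, the transferase Gstt2 at 1.24, and the extracellular superoxide dismutase Sod3 at -3.32. All had an adjusted p of 1.07e-04 or lower. Without myc-/- replicate 2, 27 in place of 28 pathway genes were called in the larger set, and Nqo1 (1.83), Ggt1 (-4.45), Txnrd3 (-4.52), Txnip (1.42), Gstt2 (1.23) and Sod3 (-3.33) were among them. Glutathione transferases have close copies, so reads may have been split among them. Between the sets, 14 of the 70 had a lower log2FC in the larger one and 4 a higher one, past the cutoffs, led by Ephx1 (2.43), Gsta1 (1.59) and Glrx3 (1.41) and by Ggt5 (-2.02), Txnrd3 (-1.89) and Ggt1 (-1.82). Of all genes, 9.67% were called lower and 6.79% higher. After quantile normalization Txnrd3 stood at -1.24 and Ggt1 at -1.16, both still called, and after median centring 12 of the 70 were called lower and 7 higher. Within the sets, Ephx1 was called lower with MYC in the smaller one (-1.62) and higher in the larger one (0.81). Glrx3 was called lower in the smaller set (-0.98). In the larger set it read higher with MYC (15.11 to 15.55), uncalled as deposited and called after quantile normalization (0.62). Gsta1 was called lower in the smaller set (-1.70) and was not called in the larger one (5.54 to 5.43). Ggt5 was called higher in the smaller set (6.74 to 8.49) and was not called in the larger one (5.74 to 5.47). Both genes read low in the larger set, where a change may not show because the treatment of low values is unknown.

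With AHR knockdown, 1 of the 70 pathway genes was called with siAHR-2, where 0.159% of all genes were called higher and 0.311% lower, and 3 with siAHR-5, where 1.47% were called higher and 0.849% lower. With siAHR-2, 0 were called higher and 1 lower, Chac1, which degrades glutathione in the cytosol, at a log2FC of -0.60 (SE 0.037, limma adjusted p = 6.11e-04). That call was lost without myc-/- + MYC siCtrl replicate 3, which left 0 of 70, and with the replicate number as a block (adjusted p = 0.0137). With siAHR-5, Ggt7 rose by 0.62 (SE 0.045, adjusted p = 5.61e-04), while Nqo1 fell by 0.72 (SE 0.022, adjusted p = 1.13e-04) and the cytosolic peroxiredoxin Prdx2 fell by 0.61 (SE 0.031, adjusted p = 3.03e-04). After quantile normalization Nqo1 was still called (-0.69), while Ggt7 (0.55) and Prdx2 (-0.53) were inside the fold cutoff and lost their calls. Directly compared, Chac1 (0.80) and Ggt7 (0.74) were higher with siAHR-5 than with siAHR-2, and Prdx2 (-0.62) was lower. With siAHR-5, Nqo1 stood at 13.31 ± 0.0071 (SD, n = 3) against 14.03 ± 0.033 in the controls, and with siAHR-2 at 13.56 ± 0.014.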

How the data were processed

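RNA was sequenced in 18 libraries, 6 groups of 3. The authors ran the NGS-QC-Toolkit on the reads, used HISAT2 2.1.0 for alignment to rn6, dropped genes under 10 total reads, applied DESeq2's normalization and deposited log2 expression values for 13188 genes, 1 column per library. The read counter and the annotation are not given in the sources used here. The libraries were poly-A selected with a kit that does not mark strand, so overlapping and antisense genes cannot be told apart. Totals of the unlogged values differed between libraries, so the values are not CPM, and no counts, depth or counting error can be taken from them. How low values were treated is unknown, and fold changes are on the deposited log2 scale. Value columns without a sample numbered 0.

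Each comparison was fitted to the deposited values with limma 3.58.1 in R 4.3.3 (lmFit, then eBayes allowing for a trend of variance with the mean), using only the groups compared, with Benjamini-Hochberg adjustment over all 13188 genes. The cutoffs were a 1.5-fold change and an adjusted p of 0.01. The fits were tested on simulated data. The 10 genes, the pathway lists, the tests and the alternatives were chosen with earlier results of these data known. Named are the 10 genes, Ahr and Myc, in each comparison up to 3 called pathway genes per direction with the largest change and no overlap between groups (no overlap rule applied to the difference between the MYC effects), and the 3 genes most correlated with each of Nfe2l2, Slc7a11 and Hmox1. The marker genes and the regulators Bach1, Sqstm1, Maff, Mafg, Mafk and Cul3 were named after their values were seen. Alternatives were an adjusted p of 0.05 with no fold cutoff, all 18 libraries in one fit, no variance trend, quantile normalization, median centring, a filter at a mean log2 of 1, a pseudocount (1 added before the log), a block on the replicate number, and fits without each library. Promoter windows came from RefSeq (GRCr8). Figures were drawn with matplotlib 3.10.9.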

Additional observations from a re-analysis of the deposited data

Results flagged for a closer look

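The 2 siRNAs against Ahr gave different values for a pair of the 10 genes by a test of the difference itself. Slc7a11 was 0.78 higher on the log2 scale with siAHR-5 than with siAHR-2 (limma adjusted p = 5.63e-04), with every siAHR-5 library above every siAHR-2 library. Txnrd1 differed by -0.86 in the same comparison (adjusted p = 5.21e-05), again in every library. The effect of MYC on Slc7a11 differed between the larger set and the smaller set by 0.73 (adjusted p = 2.26e-04), and by 0.59 without myc-/- replicate 2. The latter difference holds the scaling of the sets and the transfection label, which cannot be told apart from it here.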

How the results depend on the processing

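With an adjusted p of at most 0.05 and no fold cutoff, changed together, the members called numbered 8 and 9 for MYC in the smaller set and the larger set, 5 for siAHR-2, 9 for siAHR-5, 6 for siAHR-5 against siAHR-2 and 7 for the difference between the MYC effects. In the same order, the pathway genes numbered 62, 55, 27, 36, 36 and 41, and all genes 10051, 8538, 3860, 5169, 5151 and 7235. No scaling moved the median of all genes by over 0.1. After quantile normalization siAHR-5 called 1 of the 10 genes (Txnrd1) and 1 pathway gene (Nqo1). Values that turned sign were small and uncalled: after quantile normalization Keap1 (0.0098) and Txnrd1 (0.039) in the smaller set and Nfe2l2 (0.0041) in the larger set, and after median centring Gclm (-0.025) in the smaller set, Keap1 (-0.026) and Gclm (-0.019) with siAHR-2, Gclc (-0.0015) between the siRNAs, and Keap1 (0.039) and Gpx1 (0.082) between the MYC effects. The cause was not tested.

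Leaving out each library gave a range of -0.014 to 0.026 for Txnrd1 with MYC in the larger set, -0.018 to 0.019 for Keap1 and -0.0060 to 0.025 for Gclm with siAHR-2, -0.049 to 0.018 for Nfe2l2 between the siRNAs, -0.044 to 0.076 for Gpx1 between the MYC effects, and 0 to 1 for the pathway genes called with siAHR-2. Whether the replicate numbers pair the samples is not known. Same-numbered libraries correlated in their deviations from the group means between -0.26 and 0.24, and differently numbered ones between -0.30 and 0.31. Deviations in a group of 3 sum to 0, so these values cannot decide it. With the replicate number as a block, siAHR-2 called 0 genes, 0 of the 10 and 0 pathway genes (Hmox1 and Chac1 were lost), where limma gave an unadjusted p under 0.05 for 5030 genes and a lowest adjusted p of 0.0126. The block called 3538, 3304, 270, 266 and 2171 genes in the other comparisons and changed no other call of the 10 genes. Unknown depth limits what can be said of genes with low values.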
